A study of Homo sapiens with 8 samples.

Results

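The proteasome genes were the genes whose only annotated symbol was PSMA, PSMB, PSMC, PSMD or PSME followed by a number, pseudogenes left out. This gave 40 genes of the 22465 genes that the arrays measured under a single symbol, each read from the probe set whose mean over the 8 arrays was highest. They were 15 genes of the 20S core (8 α and 7 β genes), 4 catalytic subunits of the immunoproteasome and thymoproteasome, 17 genes of the 19S particle and 4 activators. The 17 include 3 chaperones that assemble the 19S base, PSMD5, PSMD9 and PSMD10, and the 19S counts and medians below contain them. PSMC5, PSMD7 and PSMD13 also bear such names in RefSeq and were not analysed here.

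The arrays were Affymetrix human transcriptome arrays of total RNA from BPH-1 cells, an immortalized prostate epithelial line, and WPMY-1 cells, an immortalized prostate myofibroblast line. Each line received vehicle alone or 250 μg/ml PAO, the bark extract of the tree Geissospermum vellosii called Pao extract below. There were 2 arrays in each of the 4 groups. By the study's methods, BPH-1 cells were cultured in RPMI medium and WPMY-1 cells in DMEM, both with serum. Line and medium therefore cannot be told apart in comparisons between the lines. The labels give 48 h of treatment and the study's methods give a shorter time. Nothing in the sources used here tells whether both arrays of a group stem from separate cultures, and the p-values therefore measure the spread between arrays only, which may be technical. Each cell type is represented by 1 line.

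The proteasome is the protease that degrades proteins tagged with ubiquitin, among them the IκB inhibitors that hold NFκB in the cytoplasm. The α subunits form the outer rings and the gate of the 20S core, and the β subunits form its inner rings with the proteolytic sites. The 19S particle binds, unfolds and feeds in tagged proteins. Interferon and other inflammatory signals induce the catalytic subunits PSMB8, PSMB9 and PSMB10 and the activator pair PSME1 and PSME2, which favour the production of peptides for class I antigen presentation, while transcription of the constitutive subunits is raised by the factor NFE2L1 when proteasome activity is short.

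All values are log2 values after RMA, so 1 unit is a doubling of signal. Arrays of a group correlated with r from 0.995 to 0.997 across genes. The markers of prostate epithelium measured on the arrays (8 of 10 listed) had medians between 9.48 and 9.62 on the BPH-1 arrays and between 5.21 and 5.61 on the WPMY-1 arrays, and those of stroma (11 of 12) had medians between 5.53 and 5.77 and between 7.30 and 7.81. Leukocyte markers (11 of 12) had medians between 4.27 and 4.63 and single values up to 8.13, and the 5 endothelial markers had medians between 4.57 and 4.74. Of the proteasome genes, 38 had a mean above 5. The other two were PSMA8, the α subunit of male germ cells, at 2.83 to 2.95 on the 8 arrays, and PSMB11, the thymus-restricted β subunit, at 3.90 to 4.25. These levels lay below the leukocyte medians, so both genes are counted below but read no further.

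The first question was whether Pao extract altered the expression of the proteasome. In BPH-1 cells none of the 40 genes passed limma's test at an adjusted p of 0.05, and neither did any other gene (0% of 22465). The differences between Pao extract and vehicle were small and mostly below 0, with 32 of 40 genes below 0, a median of -0.074 and a range from -0.23 to 0.13. Over all genes the median was -0.0145 and 57% lay below 0. Without adjustment, limma's p was under 0.05 for 1 proteasome gene below 0 and none above, beside 1.86% and 2.27% of all genes, and the methods' t-test gave none. That test is the Student's t-test that the study names for comparing 2 groups in general, run here on the arrays. For single genes of the arrays the study states a 1.4-fold cutoff and no test. Both Pao arrays lay below both vehicle arrays for 8 genes, beside 18.8% of all genes, and above them for 2 genes, beside 14.4%. No gene passed 1.4-fold (0.298% of all genes), and the 95% confidence intervals of all 40 differences lay within 1.4-fold in either direction. In bulk RNA of a line, fewer cells with a transcript and less of the transcript per cell cannot be told apart.

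In WPMY-1 cells none of the 40 genes passed limma's test either, while 0.0668% of all genes did. The median difference was -0.041, the range ran from -0.25 to 0.12 and 26 genes lay below 0, while over all genes the median was 0.031 and 40.2% lay below 0. Both Pao arrays were below both vehicle arrays for 14 proteasome genes, beside 16.6% of all genes, and above them for 0, beside 27%. No unadjusted p from limma was under 0.05, beside 6.51% of all genes above 0 and 4.67% below. The methods' t-test gave 2 proteasome genes with an unadjusted p under 0.05, both below 0. The share of all genes was not counted for that test, so these 2 are not read further. After adjustment it passed none of the 40 and 0 of all genes. No gene passed 1.4-fold (1.02% of all genes), and 38 confidence intervals lay within 1.4-fold, all but those of PSMC6 and PSME4. The direction in this line depended on the scaling. After a further quantile normalization the median was 0.0058 with 17 genes below 0, and after centring each array it was -0.091 with 32 below 0, whereas in BPH-1 cells the same settings gave -0.077 with 32 and -0.057 with 31. It also depended on 1 array, since without WPMY-1 Pao array 1 the median was 0.021 and 17 genes lay below 0. Between arrays of the same number, which are not known to be pairs, the medians were -0.070 and -0.0091, with 28 and 23 genes below 0.

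**Figure D1:**
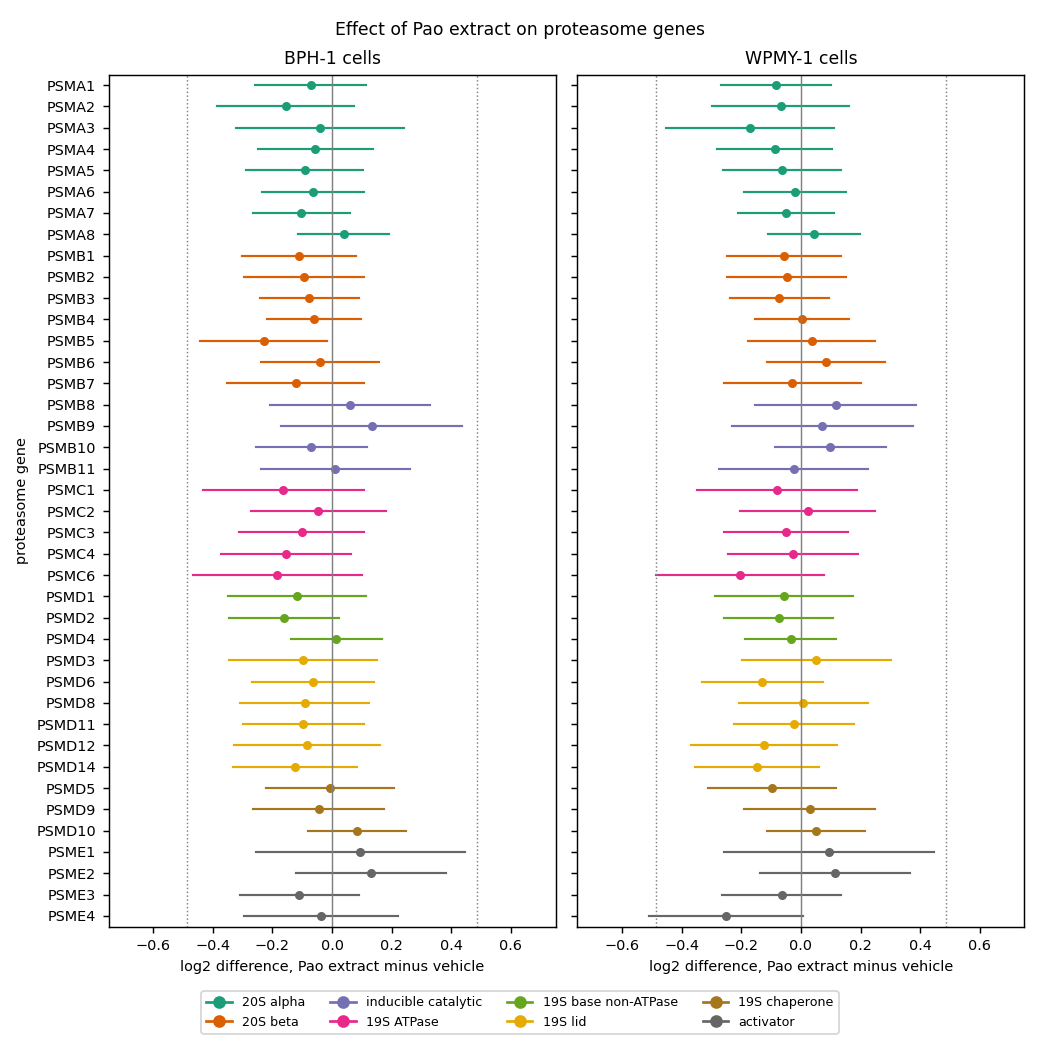
Log2 difference between Pao extract and vehicle for each of the 40 proteasome genes (vertical axis, coloured by class) in BPH-1 cells (left) and WPMY-1 cells (right). Points are differences of 2-array means, bars are 95% confidence intervals from limma and dotted lines mark 1.4-fold. Most points of the 20S core and 19S particle lie left of 0 in BPH-1 cells, and every interval but that of PSMB5 in BPH-1 cells crosses 0.

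In BPH-1 cells the constitutive 20S genes (14 without PSMA8) were all below 0, at a median of -0.084 and between -0.23 and -0.039. In WPMY-1 cells 11 of 14 lay below 0, with a median of -0.054 and a range from -0.17 to 0.084. None passed the test. Among the β subunits are the 3 constitutive proteases, PSMB5 with chymotrypsin-like activity, PSMB6 with caspase-like activity and PSMB7 with trypsin-like activity. PSMB5 measured 8.55 and 8.38 on the vehicle arrays of BPH-1 cells and 8.35 and 8.13 on the Pao arrays. Both Pao arrays were thus below both vehicle arrays, with a difference of -0.23 ± 0.093 (SE, limma unadjusted p = 0.038, adjusted p = 0.9999). In WPMY-1 cells PSMB5 measured 7.97 and 8.05 with vehicle and 8.03 and 8.07 with Pao extract, so the groups overlapped. Below, values of WPMY-1 cells keep the order of vehicle arrays, then Pao arrays.

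PSMB6 measured 9.29 and 9.35 with vehicle in BPH-1 cells and 9.29 and 9.27 with Pao extract, and 9.21 and 9.42, then 9.33 and 9.46, in WPMY-1 cells. PSMB7 measured 9.57 and 9.40 with vehicle in BPH-1 cells and 9.48 and 9.25 with Pao extract, and 9.79 and 9.91, then 9.77 and 9.88, in WPMY-1 cells. The groups overlapped for both genes in both lines. Of the α subunits, PSMA3 had the largest absolute difference in WPMY-1 cells, with 8.09 and 7.99 on the vehicle arrays and 7.93 and 7.80 on the Pao arrays. The groups did not overlap, and the difference of -0.17 ± 0.12 (SE) did not pass (limma adjusted p = 0.58). In BPH-1 cells PSMA3 measured 9.22 and 8.93 with vehicle and 9.17 and 8.89 with Pao extract, and the groups overlapped.

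Of the 17 genes of the 19S particle, BPH-1 cells had 15 below 0 (median -0.097) and WPMY-1 cells 12 (median -0.050). The 5 measured ATPases, which unfold the substrate, had a median of -0.15 in the epithelial and -0.050 in the myofibroblast line, and the 6 measured lid genes had medians of -0.094 and -0.073. PSMC6, one of the ATPases, measured 8.22 and 7.95 with vehicle in BPH-1 cells and 8.06 and 7.74 with Pao extract, and 7.55 and 7.47, then 7.36 and 7.25, in WPMY-1 cells. The groups overlapped in BPH-1 cells and not in WPMY-1 cells, where the difference was -0.20 ± 0.12 (SE, limma adjusted p = 0.54). Another ATPase, PSMC1, measured 10.23 and 9.96 with vehicle and 10.07 and 9.79 with Pao extract in BPH-1 cells, with overlap. PSMD2, a scaffold of the 19S base, measured 9.65 and 9.58 with vehicle in BPH-1 cells and 9.55 and 9.36 with Pao extract, and 10.04 and 10.10, then 9.99 and 10.01, in WPMY-1 cells. Its groups did not overlap in either line, and the differences of -0.16 ± 0.080 and -0.075 ± 0.080 (SE) did not pass (limma adjusted p = 0.9999 and 0.70).

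PSMD14, the deubiquitinase of the lid that removes the ubiquitin chain, measured 9.22 and 9.07 with vehicle in BPH-1 cells and 9.13 and 8.91 with Pao extract, and 9.11 and 9.13, then 8.95 and 8.998, in WPMY-1 cells. The groups overlapped in BPH-1 cells and not in WPMY-1 cells, where the difference was -0.15 ± 0.090 (SE, limma adjusted p = 0.54). PSMD3, another lid subunit, measured 8.59 and 8.57 with vehicle in BPH-1 cells and 8.52 and 8.44 with Pao extract, and 8.71 and 8.94, then 8.74 and 9.01, in WPMY-1 cells. It lay below both vehicle arrays in BPH-1 cells and overlapped in WPMY-1 cells. The 3 chaperones that assemble the 19S base, PSMD5, PSMD9 and PSMD10, differed by -0.0455 to 0.083 in BPH-1 cells. Their differences in WPMY-1 cells lay between -0.096 and 0.052. PSMD10 (gankyrin) was one of only 2 proteasome genes, with PSMA8, for which both Pao arrays of BPH-1 cells lay above both vehicle arrays, at 8.16 and 8.12 with vehicle and 8.27 and 8.18 with Pao extract.

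Promoters of the constitutive subunits carry antioxidant response elements through which NFE2L1 and its relative NFE2L2 act. The windows from 250 bases before to 50 bases after each RefSeq start (GRCh38.p14) were searched on both strands for TGAC and GC separated by 3 bases of any kind. Of the 40 genes, 35 matched a window, 41 windows in all. The motif was in 12 of these 41 windows (29.3%) and in 13.3% of all 35116 windows. It was found for PSMA4, PSMB3, PSMC4, PSMD1, PSMD3, PSMD5, PSMD9, PSMD12 and PSME4. The interferon-inducible genes PSMB9, PSME1 and PSME2 also had it, so the match was not confined to constitutive subunits. A window is shown for 1 gene of the α subunits, the β subunits and the 19S lid each, as the DNA of genes whose values lay below 0 in BPH-1 cells, from 180 bases before to 20 after the start and with the motif in capitals. The windows are PSMA4 at chr15:78540606-78540805, plus strand, PSMB3 at chr17:38752561-38752760, plus strand and PSMD12 at chr17:67366558-67366757, minus strand.
PSMA4: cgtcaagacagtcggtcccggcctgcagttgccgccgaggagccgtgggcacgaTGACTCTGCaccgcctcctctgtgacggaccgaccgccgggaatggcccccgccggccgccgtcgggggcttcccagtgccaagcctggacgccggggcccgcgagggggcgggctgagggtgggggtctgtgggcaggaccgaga
PSMB3: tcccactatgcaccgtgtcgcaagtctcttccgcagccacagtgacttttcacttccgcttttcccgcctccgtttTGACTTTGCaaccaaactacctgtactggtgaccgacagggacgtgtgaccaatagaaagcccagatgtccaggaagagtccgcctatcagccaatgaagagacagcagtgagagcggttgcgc
PSMD12: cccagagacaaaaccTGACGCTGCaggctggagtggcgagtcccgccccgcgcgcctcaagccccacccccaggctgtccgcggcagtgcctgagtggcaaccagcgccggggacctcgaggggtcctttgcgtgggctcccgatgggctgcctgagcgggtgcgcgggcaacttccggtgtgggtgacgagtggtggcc
A match is a run of letters and no measured binding. With Pao extract, PSMA4, PSMB3 and PSMD12 differed from vehicle by -0.056, -0.076 and -0.083 in BPH-1 cells and, for WPMY-1 cells, by -0.088, -0.072 and -0.12, and none passed limma's test. The groups of all 3 overlapped in BPH-1 cells and did not in WPMY-1 cells. CCAAT, the motif of NFYA and its partners, was in 17 of the 41 windows (41.5%) and in 34.6% of all windows.

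The interferon-inducible genes lay on the other side of 0. Of PSMB8, PSMB9, PSMB10, PSME1 and PSME2, BPH-1 cells had 4 of 5 above 0 (median 0.095) and WPMY-1 cells 5 of 5 (median 0.099), and none passed the test or 1.4-fold. Over all genes 57% lay below 0 in BPH-1 cells, but only 40.2% in the WPMY-1 line. After centring each array, the WPMY-1 differences were smaller, at 0.067 for PSMB8, 0.021 for PSMB9, 0.049 for PSMB10, 0.0446 for PSME1 and 0.0645 for PSME2, all still above 0. After a further quantile normalization they were also smaller for PSMB8 (0.10), PSMB9 (0.0605) and PSMB10 (0.078). For PSME1 and PSME2 they were then larger, at 0.14 and 0.16. PSMB8, which replaces PSMB5 in the immunoproteasome, measured 6.46 and 6.56 with vehicle in BPH-1 cells and 6.54 and 6.61 with Pao extract, and 6.35 and 6.67, then 6.52 and 6.74, in WPMY-1 cells. PSMB9, which replaces PSMB6, measured 6.46 and 6.67 with vehicle in BPH-1 cells and 6.58 and 6.81 with Pao extract, and 6.40 and 6.68, then 6.49 and 6.72, in WPMY-1 cells. The groups overlapped for both genes in both lines, and array 2 was above array 1 in every group. PSMB10, which replaces PSMB7, measured 6.34 and 6.37 with vehicle in BPH-1 cells and 6.27 and 6.30 with Pao extract, and 6.31 and 6.40, then 6.36 and 6.56, in WPMY-1 cells. It was the only gene of the 5 below 0 in BPH-1 cells, where its groups did not overlap (-0.070 ± 0.082, SE, limma adjusted p = 0.9999). PSMB8 and PSMB9 have 8 probe sets each, of which 5 and 6 hold distinct values, and over these the differences ran in BPH-1 cells between 0.044 and 0.060 and between 0.13 and 0.16, and in WPMY-1 cells between 0.098 and 0.12 and between 0.0685 and 0.080. By their names, these probe sets stand for chromosome 6 and alternative haplotypes of it, so they are not independent measurements.

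PSME1 and PSME2, the subunits of the activator ring that opens the core without ATP, measured as follows. PSME1 was at 8.90 and 9.19 with vehicle in BPH-1 cells and 8.97 and 9.31 with Pao extract, and 8.50 and 8.77, then 8.61 and 8.84, in WPMY-1 cells. PSME2 was at 8.96 and 9.08 with vehicle in BPH-1 cells and 9.06 and 9.25 with Pao extract, and 8.51 and 8.67, then 8.58 and 8.83, in WPMY-1 cells. The groups overlapped in all these cases. Leaving out 1 array, which also unbalances the array numbers, turned some of the signs. In WPMY-1 cells without vehicle array 1 the differences were -0.041 for PSMB8, -0.066 for PSMB9 and -0.042 for PSME1, and without Pao array 2 they were -0.0435 for PSMB9, -0.00046 for PSMB10, -0.021 for PSME1 and -0.010 for PSME2. In BPH-1 cells the difference of PSME1 was -0.053 without vehicle array 1 and -0.072 without Pao array 2. Between arrays of the same number, computed after these values were seen, all 5 inducible genes lay above 0 for both numbers in WPMY-1 cells (0.046 to 0.16) and 4 of 5 did in BPH-1 cells, with PSMB10 below 0 for both, but the numbers are not known to pair the arrays.

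Interferon regulatory factors bind paired GAAA repeats, and such a pair, GAAA and GAAA separated by 2 bases of any kind, was searched in the same windows on both strands. It was in 6 of the 41 windows of the proteasome genes (14.6%) and in 3.57% of all windows. The genes were PSMA4, PSMB4, PSMB8, PSMB10, PSME1 and PSME2, and the match did not overlap a TGAC and GC match in any of their windows. The window of PSMB9 held no match, which says only that these letters are not in it. The 4 inducible genes with a match are shown because they carry the interferon motif next to the start, with the motif in capitals and from 180 bases before to 20 after the start. The windows are PSMB8 at chr6:32844028-32844227, minus strand, PSMB10 at chr16:67936831-67937030, minus strand, PSME1 at chr14:24136014-24136213, plus strand and PSME2 at chr14:24146591-24146790, minus strand.
PSMB8: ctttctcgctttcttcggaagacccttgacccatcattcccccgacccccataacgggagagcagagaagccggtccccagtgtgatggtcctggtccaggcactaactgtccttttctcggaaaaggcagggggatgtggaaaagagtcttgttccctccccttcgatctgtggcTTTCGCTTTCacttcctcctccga
PSMB10: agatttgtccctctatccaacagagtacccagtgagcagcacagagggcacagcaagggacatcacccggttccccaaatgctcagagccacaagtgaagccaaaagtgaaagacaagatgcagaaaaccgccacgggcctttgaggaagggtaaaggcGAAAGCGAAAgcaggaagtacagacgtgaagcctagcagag
PSME1: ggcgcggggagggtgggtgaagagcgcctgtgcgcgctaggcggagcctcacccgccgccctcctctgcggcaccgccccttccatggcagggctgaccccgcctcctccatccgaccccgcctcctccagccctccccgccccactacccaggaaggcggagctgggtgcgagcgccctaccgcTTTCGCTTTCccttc
PSME2: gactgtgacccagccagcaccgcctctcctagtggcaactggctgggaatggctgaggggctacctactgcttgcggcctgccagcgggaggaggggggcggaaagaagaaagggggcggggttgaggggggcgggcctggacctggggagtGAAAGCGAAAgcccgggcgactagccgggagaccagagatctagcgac
The motif began within 28 bases of the start in all 4 windows shown, and 240 and 68 bases before it in PSMA4 and PSMB4. PSMB8 and PSMB9 lie side by side with the peptide transporter genes TAP1 and TAP2 on chromosome 6, and PSME1 and PSME2 lie near each other on chromosome 14 with EMC9 between them.

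**Figure D2:**
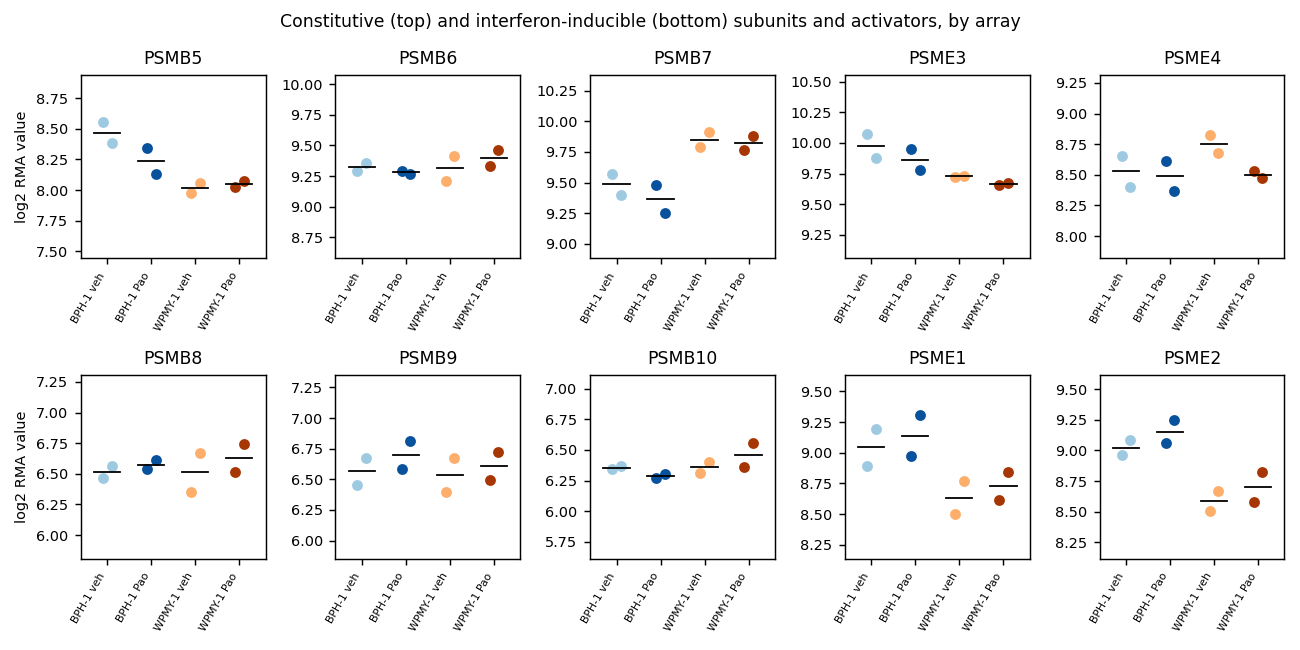
Log2 RMA value of each array (points) and mean of each group (lines) for the constitutive proteases and the activators PSME3 and PSME4 (top) and for the inducible proteases and activators (bottom), each panel spanning the same number of log2 units. For PSMB9 and PSME1 the arrays of a group lie further apart than the group means of a line, and for PSMB10 in BPH-1 cells they lie closer together.

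The other activators were PSME3, whose product forms a nuclear activator ring, and PSME4, whose product caps the core as a single large protein. PSME3 measured 10.07 and 9.88 with vehicle in BPH-1 cells and 9.95 and 9.78 with Pao extract, and 9.73 and 9.73, then 9.66 and 9.67, in WPMY-1 cells. PSME4 measured 8.65 and 8.40 with vehicle in BPH-1 cells and 8.62 and 8.37 with Pao extract, and 8.83 and 8.68, then 8.53 and 8.47, in WPMY-1 cells. The groups of both genes overlapped in BPH-1 cells and not in WPMY-1 cells. For PSME4 in WPMY-1 cells the difference was -0.25 ± 0.11 (SE, 95% confidence interval -0.51 to 0.0061), the lowest p of any proteasome gene in that line (limma unadjusted p = 0.055, adjusted p = 0.45). For PSME3 it was -0.064 ± 0.087 (SE, limma adjusted p = 0.77), and 0.0046 after quantile normalization. In BPH-1 cells PSME4 differed by -0.038, and by 0.086 without vehicle array 1 and 0.087 without Pao array 2.

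Whether the effect of Pao extract differed between the lines was tested directly. None of the 40 genes, and 0% of all genes, passed limma's test of the difference, and no unadjusted p of a proteasome gene was under 0.05, beside 4.53% of all genes above 0 and 2.6% below. No proteasome gene differed by 1.4-fold between the effects, beside 1.61% of all genes. The lowest adjusted p was 0.69, for PSMB5, with an effect 0.26 ± 0.13 (SE) higher in WPMY-1 than in BPH-1 cells and a 95% confidence interval from -0.037 to 0.57. The next in size were PSME4 at -0.21 (-0.58 to 0.15), PSMB10 at 0.17 and PSMD3 at 0.15, with limma adjusted p between 0.70 and 0.77. Their intervals are wide against the effects themselves, so they leave both no difference and one larger than the estimate possible. The effects lay below 0 in both lines for 24 genes and above 0 in both for 6. Across the 40 genes, which share their arrays within a line, the effects in the 2 lines correlated with Pearson's r = 0.48 and Spearman's ρ = 0.40. The same counts and correlations were not computed over all genes, so they are not read as a trait of the proteasome genes.

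The medians by class also differed between the arrays of a group. Relative to the vehicle mean of BPH-1 cells, the median of the 20S genes was 0.057 and -0.057 on the vehicle arrays and -0.027 and -0.16 on the Pao arrays. The 19S genes stood at 0.080 and -0.080, then at -0.0060 and -0.17, and the 5 inducible genes at -0.061 and 0.061, then at 0.018 and 0.22. In each case Pao array 1 lay between the vehicle arrays and Pao array 2 lay outside them. In BPH-1 cells 31 of 40 genes were lower on array 2 than on array 1 with vehicle and 33 with Pao extract, and without Pao array 2 the median difference of the 40 genes was -0.016 with 24 below 0. Without vehicle array 1 it was -0.023 with 27 below 0, and without Pao array 1 it was -0.15 with 33 below 0. Between arrays of the same number it was -0.068 and -0.080, with 31 and 34 below 0. In WPMY-1 cells the 20S genes stood at -0.011 and 0.011 with vehicle and at -0.092 and 0.021 with Pao extract, and the inducible genes at -0.14 and 0.14, then at -0.010 and 0.21. With 2 arrays on each side, the smallest two-sided p of an exact permutation test is 0.333.

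**Figure D3:**
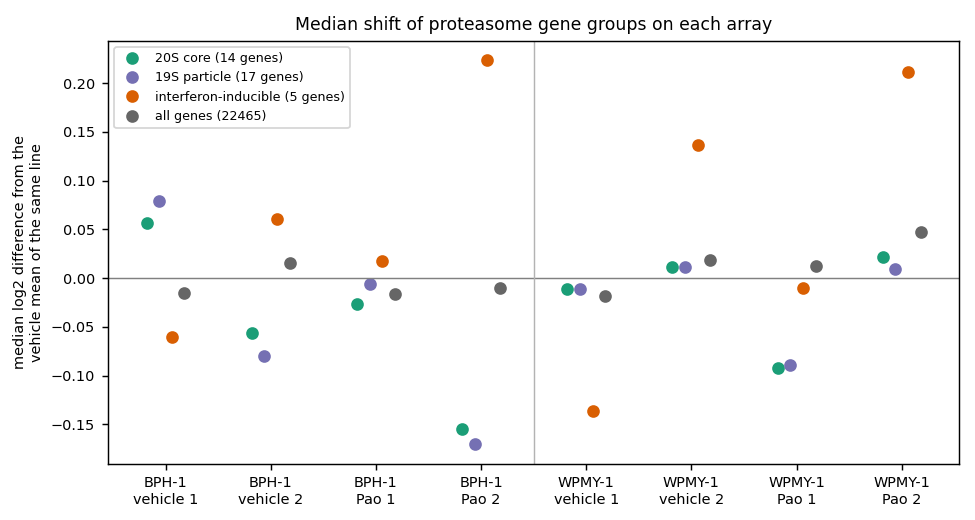
Median log2 difference from the vehicle mean of the same line (vertical axis) for the 20S core, the 19S particle, the 5 interferon-inducible genes and all genes on each of the 8 arrays (horizontal axis). The 20S and 19S points of each array lie together, and the inducible genes move the other way between the arrays of BPH-1 cells.

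The second question was how the lines compared without Pao extract. Vehicle-treated WPMY-1 cells differed from vehicle-treated BPH-1 cells in 16 of the 40 genes, 9 higher and 7 lower (limma, adjusted p of 0.05), while 30.9% of all genes differed, 15.3% higher and 15.6% lower. Among genes with a mean above 5, 40.4% did, 20.4% higher and 20% lower, so the share of proteasome genes was close to the background. Both WPMY-1 arrays lay above both BPH-1 arrays for 15 genes, beside 28.8% of all genes, and below them for 11, beside 34.1%. Unadjusted, limma's p was under 0.05 for 11 higher and 10 lower genes, beside 19.2% and 20.5% of all genes. The methods' t-test passed none of the 40 after adjustment, while over all genes it passed 17 higher and 13 lower. Without adjustment it gave 7 higher and 6 lower proteasome genes, and the share of all genes was not counted for it. After centring each array the median of all genes moved from -0.024 to 0.084, and the 40 genes moved with it, from 0.00185 to 0.11. The 16 calls were kept and 3 higher ones joined them, while over all genes the calls moved from 3442 higher and 3495 lower to 5141 and 2494.

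Of the 20S core, the α genes PSMA3, PSMA5 and PSMA6 and the protease PSMB5 were lower in WPMY-1 cells, and PSMB2, PSMB4 and PSMB7 were higher. PSMA3 measured 9.22 and 8.93 in BPH-1 cells and 8.09 and 7.99 in WPMY-1 cells, a difference of -1.03 ± 0.12 (SE, limma adjusted p = 0.00032). PSMA6 measured 9.51 and 9.46 against 8.71 and 8.70, a difference of -0.78 ± 0.075 (adjusted p = 9.3e-05), and PSMA5 measured 8.06 and 7.92 against 7.48 and 7.51, a difference of -0.50 ± 0.086 (adjusted p = 0.0025). These gaps were several times the spread between arrays of a line. PSMB5 differed by -0.45 ± 0.093 (adjusted p = 0.0060) and PSMB7 by 0.36 ± 0.10 (adjusted p = 0.0245), so the chymotrypsin-like and trypsin-like subunits lay in opposite directions, and PSMB6 differed by -0.0088 ± 0.086.

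Of the 19S genes, the chaperones among them, 6 were higher in WPMY-1 cells and 2 lower. PSMC3, one of the ATPases, measured 8.52 and 8.45 in BPH-1 cells and 9.27 and 9.45 in WPMY-1 cells, a difference of 0.88 ± 0.091 (SE, limma adjusted p = 0.00015). PSMC2 was also higher (0.33), whereas PSMC1, at 10.23 and 9.96 against 9.46 and 9.49, and PSMC6, at 8.22 and 7.95 against 7.55 and 7.47, were lower, by -0.62 ± 0.12 and -0.58 ± 0.12. The products of these ATPases sit in 1 ring in equal numbers, and their mRNAs thus differed between the lines in both directions. The base scaffold PSMD2, the lid subunit PSMD6 and the chaperones PSMD9 and PSMD10 were higher, by 0.46 ± 0.080, 0.46 ± 0.089, 0.56 ± 0.096 and 0.34 ± 0.072. PSMD9 measured 6.63 and 6.46 against 7.06 and 7.14, and PSMD6 measured 7.91 and 7.74 against 8.35 and 8.22.

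The inducible proteases showed hardly any difference between the vehicle-treated lines. PSMB8 differed by -0.0010 (95% confidence interval -0.27 to 0.27), PSMB9 by -0.027 (-0.33 to 0.28) and PSMB10 by 0.0047 (-0.18 to 0.19). The activators PSME1 and PSME2 had similar differences of -0.41 ± 0.15 and -0.43 ± 0.11 (SE), of which that of PSME2 passed (limma adjusted p = 0.0165) and that of PSME1 did not (0.078). PSME3 and PSME4 did not pass, at -0.24 and 0.22 (adjusted p = 0.067 and 0.18). The smaller calls depended on single arrays. PSMB2, PSMB4, PSMB7, PSMC2 and PSME2 were lost without BPH-1 vehicle array 2, which left 5 higher and 7 lower with PSME3 added, PSMB2, PSMB4, PSMB7 and PSMC2 without WPMY-1 vehicle array 2, PSMB2, PSMC2 and PSME2 without WPMY-1 vehicle array 1, and PSMB2 and PSMC6 without BPH-1 vehicle array 1. RefSeq lists 13 pseudogenes of PSMC1, 6 of PSME2, 4 of PSMA6 and 3 of PSMC6, and whether their probes tell the copies apart was not tested.

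**Figure D4:**
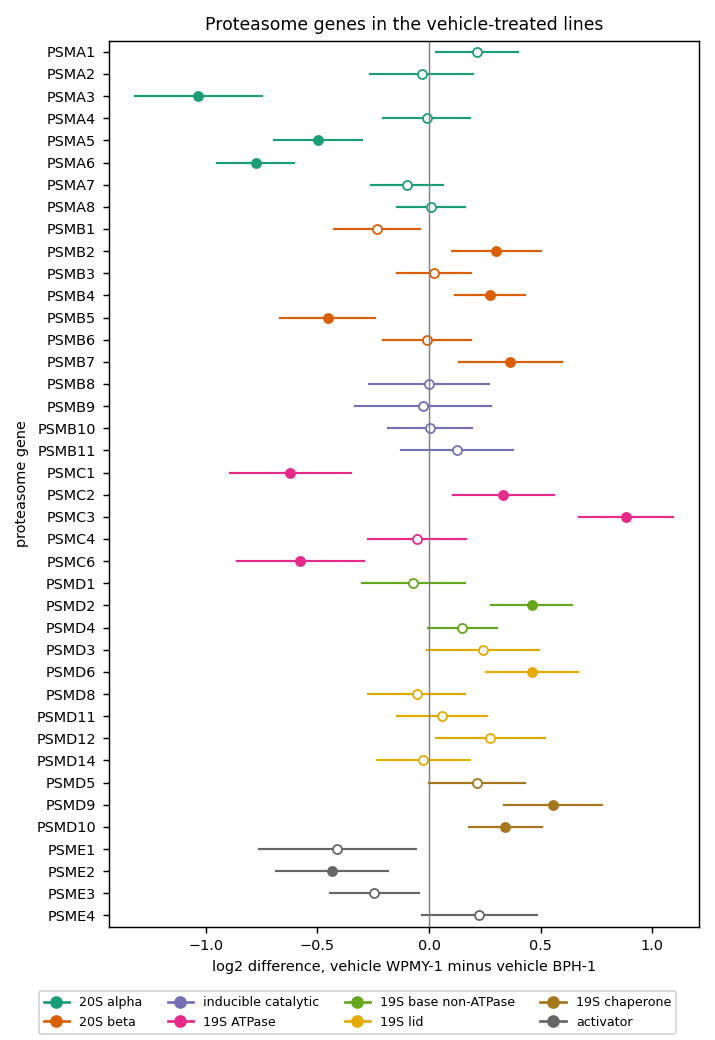
Log2 difference between vehicle-treated WPMY-1 and BPH-1 cells for each of the 40 proteasome genes (vertical axis, coloured by class), with 95% confidence intervals from limma. Filled points passed an adjusted p of 0.05, and these reach from -1.03 for PSMA3 to 0.88 for PSMC3.

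The genes that were lower in WPMY-1 cells shared a chromosome, which was seen after their values were known. Of the 38 genes with a mean above 5, 7 lie on chromosome 14, namely PSMA3, PSMA6, PSMB5, PSMC1, PSMC6, PSME1 and PSME2. All 7 lay below 0, between -1.03 and -0.41 with a median of -0.58, and 6 of them passed the test, so that PSMA5 on chromosome 1 was the only gene called lower that lies elsewhere. The 31 genes on other chromosomes ran from -0.50 to 0.88 with a median of 0.059, and 13 of them lay below 0. The other protein-coding genes of chromosome 14 were shifted as well. Of 397 such genes with a mean above 5, 58.9% were called lower and 8.56% higher, with a median of -0.41, while of 11782 genes on all other chromosomes 19.7% were called lower and 22.6% higher, with a median of -0.026. The medians of the 22 other chromosomes ran from -0.17 for chromosome 13 to 0.17 for chromosome 4. After quantile normalization and after centring, the chromosome 14 medians were -0.60 and -0.47 for the proteasome genes and -0.38 and -0.30 for the other genes. The Pao effects showed no such pattern, with chromosome 14 medians of 0.0115 for BPH-1 and 0.025 for WPMY-1 cells against -0.0099 and 0.022 elsewhere.

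**Figure D5:**
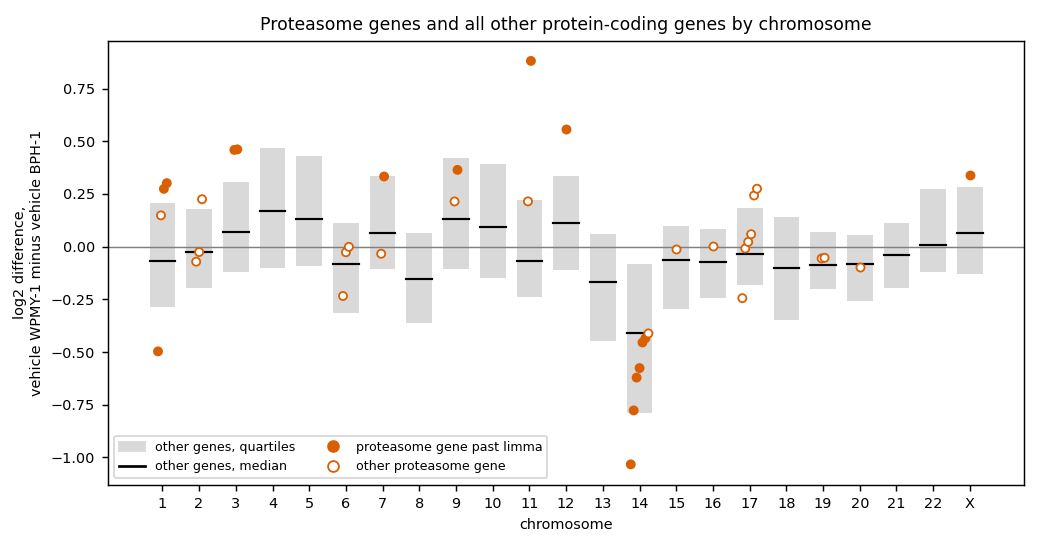
Log2 difference between vehicle-treated WPMY-1 and BPH-1 cells by chromosome. Grey bars span the quartiles and black lines mark the median of the other protein-coding genes with a mean above 5, points are the 38 proteasome genes with a mean above 5, filled where they passed limma's test; the 7 proteasome genes of chromosome 14 all lie between -1.03 and -0.41, and the median of the other genes of that chromosome is -0.41.

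Of 18 listed genes that assemble and regulate the proteasome, all measured, none passed limma's test with Pao extract, and BPH-1 cells had 3 above 0 (median -0.039) and WPMY-1 cells 5 (median -0.0585). Between the vehicle-treated lines 4 were higher and 4 lower in WPMY-1 cells, a share near that of all genes (30.9%, and 40.4% of those with a mean above 5). Among them, POMP, the maturation factor of the 20S core, measured 9.25 and 9.04 in BPH-1 cells and 8.58 and 8.60 in WPMY-1 cells (-0.56, limma adjusted p = 0.0050). The deubiquitinase UCHL5 differed by -0.74 and ECPAS, an adaptor that binds the 19S particle, by 0.58 (adjusted p = 0.0011 and 0.00071).

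Of 11 listed transcriptional regulators 8 were measured, and none passed with Pao extract. NFE2L1 measured 8.46 and 8.66 with vehicle in BPH-1 cells and 8.42 and 8.55 with Pao extract, and 8.21 and 8.35, then 8.39 and 8.46, in WPMY-1 cells. The groups overlapped in BPH-1 cells, whereas both Pao arrays of WPMY-1 cells were above both vehicle arrays (0.14, limma adjusted p = 0.55). For NFE2L2 both Pao arrays of WPMY-1 cells were below both vehicle arrays (-0.11, adjusted p = 0.54). Of the 8 regulators, 3 lay above and 3 below without overlap in WPMY-1 cells, beside 27% and 16.6% of all genes. The largest absolute difference was that of NFYA in WPMY-1 cells, at 7.70 and 7.74 with vehicle and 7.49 and 7.48 with Pao extract (-0.23, adjusted p = 0.31). The relative NFE2L3 was lower in vehicle-treated WPMY-1 than in BPH-1 cells, with 6.43 and 6.31 against 7.70 and 7.88 (-1.42, adjusted p = 1.5e-05).

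Of 17 listed genes of ubiquitin, its activation and its shuttles 13 were measured, and none passed with Pao extract. SQSTM1, the p62 receptor that carries ubiquitinated proteins to autophagy, had the largest absolute difference in both lines. It measured 7.49 and 7.75 with vehicle in BPH-1 cells and 7.97 and 8.01 with Pao extract, and 7.93 and 8.26, then 8.47 and 8.61, in WPMY-1 cells. Both Pao arrays were above both vehicle arrays in each line, by 0.37 ± 0.12 and 0.44 ± 0.12 (SE, limma unadjusted p = 0.017 and 0.0071, adjusted p = 1 and 0.33). The polyubiquitin gene UBB differed by -0.024 and 0.0053.

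Of 15 listed genes of class I antigen presentation 14 were measured, and like the inducible subunits most lay above 0, 11 for BPH-1 cells (median 0.085) and 12 for WPMY-1 cells (median 0.079), with none past limma's test. TAPBP, the tapasin that loads peptides on class I molecules, measured 8.40 and 8.74 with vehicle in BPH-1 cells and 8.62 and 8.89 with Pao extract, and 8.31 and 8.57, then 8.52 and 8.76, in WPMY-1 cells. HLA-E, a non-classical class I molecule, measured 8.67 and 8.96 with vehicle in BPH-1 cells and 8.81 and 9.05 with Pao extract, and 8.61 and 8.98, then 8.85 and 9.21, in WPMY-1 cells. Both genes overlapped between the groups of each line and, like PSMB9 and PSME1, were higher on array 2 than on array 1 in every group. Other genes of the list did not overlap. In BPH-1 cells 4 of the 14 lay above both vehicle arrays and 1 below, beside 14.4% and 18.8% of all genes. In WPMY-1 cells 3 lay above and 1 below, beside 27% and 16.6%. TAP1, the neighbour of PSMB8 and PSMB9, differed by 0.069 and 0.084.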

How the data were processed

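Total RNA of 8 arrays, 2 in each of 4 groups, was hybridized to Affymetrix human transcriptome arrays. The authors deposited log2 values after RMA, which corrects the background, brings the arrays to a common distribution and summarises probes, 1 value for each of 67528 probe sets and each array, and these were used with no pseudocount and no filter. The version of RMA and the build of the probe sets' coordinates are not given in the sources used here, and no column of sample values was left unused. Precision is limited by the number of arrays.

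Names came from the platform annotation, in which 23781 probe sets have 1 symbol, 1543 have several and stayed unnamed, and 42204 do not appear. Each gene was read from its probe set with the highest mean. All 40 proteasome genes matched RefSeq, and promoter windows and chromosomes came from RefSeq (GRCh38.p14). All 22465 genes and 8 arrays were fitted, 1 mean for each group, with limma 3.58.1 in R 4.3.3 (empirical Bayes, 4 residual degrees of freedom), and p-values were adjusted by the Benjamini-Hochberg method over all genes of each of the 4 comparisons. The threshold was an adjusted p of 0.05, and 1.4-fold, the study's cutoff for the arrays, was counted with no test. The script was tested on simulated data.

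The proteasome genes, the classes and the other gene lists were chosen with earlier results of these data known. Values by array are given for the genes past limma in a comparison (at most 8, filled up to the 4 with the largest absolute difference), the inducible proteases and their constitutive counterparts, the activators, PSMA8 and PSMB11, and of each other list at most 4 genes are named. UBB, TAP1, NFE2L1 and NFE2L2 were named in addition for their roles, and PSMA4, PSMB3 and PSMD12 for their promoters, after their values were seen. Alternative settings were a filter on a mean above 5, centring of each array, quantile normalization of the deposited values, other choices of probe set, a fit on the compared groups alone, eBayes with trend and robust, a replicate block, the methods' t-test, 1.4-fold, and leaving out each array in turn.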

Additional observations from a re-analysis of the deposited data

How the results depend on the processing

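The counts of proteasome genes past the test with Pao extract, and for the difference of the effects, were 0 under every alternative that was run. Leaving out each array in turn, the median difference of the 40 genes ran from -0.147 to -0.0164 in BPH-1 cells, from -0.0868 to 0.0212 in WPMY-1 cells and from -0.0155 to 0.103 for the difference of the effects. Between the vehicle-treated lines, the 9 higher genes became 2 at 1.4-fold with no test, 0 by the methods' t-test and 5 to 9 without single arrays, and the 7 lower genes became 5 at 1.4-fold, 0 by the methods' t-test, 9 after quantile normalization and 6 to 7 without single arrays. The median over the 40 genes was 0.1104 after centring in place of 0.00185, and -0.0259 to 0.0624 without single arrays. With a replicate block, 14 genes were higher and 10 lower between the lines, and the lowest adjusted p with Pao extract was 0.26 for BPH-1 and 0.069 for WPMY-1 cells, and over all genes the block gave 98 higher and 125 lower in WPMY-1 cells in place of 10 and 5. Unadjusted, limma's p with the block was under 0.05 for 9 proteasome genes below 0 and 2 above in BPH-1 cells. For WPMY-1 cells it was under 0.05 for 5 below 0 and 0 above. The share of all genes was counted for neither line, so these counts lack a background and are not read further. Arrays of the same number deviated together (r of 0.50, 0.43 and 0.34 for the 3 pairs of groups), but with 2 pairs a comparison they share only a number. In WPMY-1 cells, PSMB5 was at -0.0147 after centring, and PSMB7 at 0.0463 and PSME3 at 0.00455 after quantile normalization. Without single arrays the differences in WPMY-1 cells ran from -0.00442 to 0.0754 for PSMB5, -0.0176 to 0.1857 for PSMB6, -0.0905 to 0.0332 for PSMB7, -0.041 to 0.2746 for PSMB8, -0.0663 to 0.2095 for PSMB9, -0.000458 to 0.1986 for PSMB10, -0.0416 to 0.2313 for PSME1 and -0.0101 to 0.2394 for PSME2, and in BPH-1 cells from -0.0716 to 0.262 for PSME1 and -0.1629 to 0.0872 for PSME4. The causes were not tested. All genes, in place of 10 higher and 5 lower in WPMY-1 cells, gave 3 and 1 after quantile normalization, 0 and 0 after centring, in a fit on the compared groups alone and by the methods' t-test, 11 and 2 with a mean above 5, and 6 and 4 with trend and robust; between the lines the methods' t-test gave 17 higher and 13 lower.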
